A study of Mus musculus with 4 samples.

Results

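The nuclear genes of mitochondrial complex I and of the factors that assemble it were read in ribosome protected fragments (RPF) and in total RNA of mouse embryonic stem cells. Members were all protein-coding genes of the GENCODE M21 annotation whose symbol starts with Nduf. There were 46 of them among the 37311 gene identifiers in the files. They comprise 36 genes of complex I subunits, 8 assembly factor genes (Ndufaf1 to Ndufaf8), and Ndufa4 and Ndufa4l2, which bear the name but are kept apart because Ndufa4 belongs to complex IV. A further 5 records with such a symbol are not protein-coding in M21. They are 4 processed pseudogenes, with at most 2 counts in any library, and Ndufb1-ps, which was not analysed here.

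The cells were of the J1 line, strain 129S4/SvJae, grown without feeders in serum with leukaemia inhibitory factor. All of them carried short hairpin RNAs (sheIF4a3-2 and sheIF4a3-3 in the labels) that target eIF4A3, a helicase found in the exon junction complex. They were kept for 3 days in puromycin at 1 µg/mL, and harvested on day 4.5. Harvest followed 1 min in cycloheximide at 0.1 mg/mL, which arrests cytosolic ribosomes. RPF libraries hold the fragments that ribosomes shield from nuclease; total RNA libraries hold RNA of the same knockdown condition. There were 2 biological replicates of each. Control cells were not analysed here, so each comparison is of footprints with RNA inside knockdown cells, and none is of knockdown with control. The sources used here do not say which hairpin went into which replicate.

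Complex I is the entry point of the respiratory chain. Its matrix arm takes electrons from NADH and passes them through flavin and iron-sulfur clusters to ubiquinone, and its membrane arm, whose core is encoded in mitochondrial DNA, pumps protons. Core subunits carry out the reaction, supernumerary subunits surround them, and assembly factors join modules together and leave the finished enzyme.

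The RPF libraries held 9434987 and 7615277 gene counts (replicates 1 and 2), and the total RNA libraries 8969965 and 8218020. A gene with no count in a library may still have stood at up to 3 counts there, or 0.318 to 0.394 CPM (counts scaled to library size, with TMM factors in the values below); such limits cover counting error only. Eif4a3, the targeted gene, had 1640 and 1325 counts in RPF and 1229 and 975 counts in total RNA, and with no control cells these do not measure the knockdown. Stem cell markers were present in every library, from 244 to 1906 CPM over Pou5f1, Sox2, Nanog, Esrrb, Zfp42, Tdgf1 and Dppa5a. The 4 fibroblast markers summed to 12.5 and 11.3 CPM in RPF and to 5.47 and 5.15 CPM in total RNA. The 3 trophectoderm markers summed to 6.84 and 4.22 CPM in RPF and to 2.54 and 2.99 CPM in total RNA, the 3 measured mesoderm and neuroectoderm markers to 3.35 and 5.24 CPM in RPF and to 4.98 and 4.43 CPM in total RNA, and the 3 primitive endoderm markers to 41.2 and 32.0 CPM in RPF and to 31.9 and 19.9 CPM in total RNA. T, the mesoderm marker brachyury, was at 0 in RPF replicate 2 and in total RNA replicate 1. The part of other cells in the results below was not tested.

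Ribosomes begin a protein at the start codon, so the stretch around it is shown for 7 subunits with some of the highest and lowest ratios of footprints to RNA, and for the highest and lowest assembly factor. The letters are from GENCODE M21 transcripts (GRCm38), 5′ to 3′, with the start codon in capitals. Each start codon lies on the strand given.
Ndufc2 (chr7:97400189-97400191, plus strand): acctgcctcaagATGatgaacggccggccg
Ndufb6 (chr4:40279335-40279337, minus strand): ctcgtcggcaacATGtcagggtacacgccg
Ndufa12 (chr10:94199045-94199047, plus strand): atgcagatgagaATGgagctggtggaggtc
Ndufab1 (chr7:122101820-122101822, minus strand): gttggcgtagccATGgcgtctcgtgtcctc
Ndufa6 (chr15:82354226-82354228, minus strand): ttcctcggcaagATGgcggccgcggccacc
Ndufb9 (chr15:58933838-58933840, plus strand): gagccggacgctATGgcgttctgcgctccc
Ndufa8 (chr2:36049240-36049242, minus strand): gctaccgccgtcATGccggggatagtggag
Ndufaf2 (chr13:108158567-108158569, minus strand): ttcggcgcaggcATGagctggtggtccggt
Ndufaf4 (chr4:24898167-24898169, plus strand): catgatttagagATGggggctcgcgtgacc

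A start codon with A or G 3 bases before it and G directly after it (ANNATGG or GNNATGG, read on the transcript strand alone) was found in 28 of the 45 tested Nduf genes (62.2%). Outside the family it was found in 5669 of 12298 tested protein-coding genes (46.1%). The motif was in Ndufa12, Ndufb3 and Ndufab1, which had high ratios of footprints to RNA, and not in Ndufc2 or Ndufb6, which had higher ones. Among the 5 lowest supernumerary subunits it was in Ndufa10, Ndufa6, Ndufb9 and Ndufa2 and not in Ndufa8. The letters are a description of the annotated transcripts and not a measure of start site use.

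Footprints of complex I genes were more abundant than their RNA relative to other genes. The ratio below is the log2 of RPF over total RNA. It passed as higher in 33 of 36 subunit genes and in 5 of 8 Ndufaf genes, and none of either passed as lower. The test was edgeR's quasi-likelihood test, two-sided, with Benjamini-Hochberg adjustment over 13809 genes and a threshold of 0.05. Over all tested genes 20.5% were called higher and 21.2% lower (41.7% in either direction), and over tested protein-coding genes 20.8% and 19.3% (40.1%). The median ratio was 1.10 over subunit genes and 0.88 over Ndufaf genes, against -0.02 over all tested genes and 0.01 over protein-coding genes outside the family. In all 36 subunit genes and in 7 of 8 Ndufaf genes both RPF libraries lay above both total RNA libraries, an order found in 34.9% of all tested genes and 36.1% of protein-coding ones; the reverse order was found in 37.9% and 35.8%, and in no member. Of the 36 subunits, 22 were called at 2-fold or more, and of the 8 assembly factors 2, against 9.41% of all tested genes and 8.75% of protein-coding ones. Ndufa4l2 alone was below the count filter, so 45 members were tested.

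Scaling moves these values. Scaled by library size without TMM, all genes had a median of -0.45, and subunit and Ndufaf genes medians of 0.66 and 0.44, with 23 and 2 called higher. Without total RNA replicate 2 the calls were 25 and 3, and without total RNA replicate 1 they were 30 and 2. In all these settings the class medians stayed above that of all genes.

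**Figure D1:**
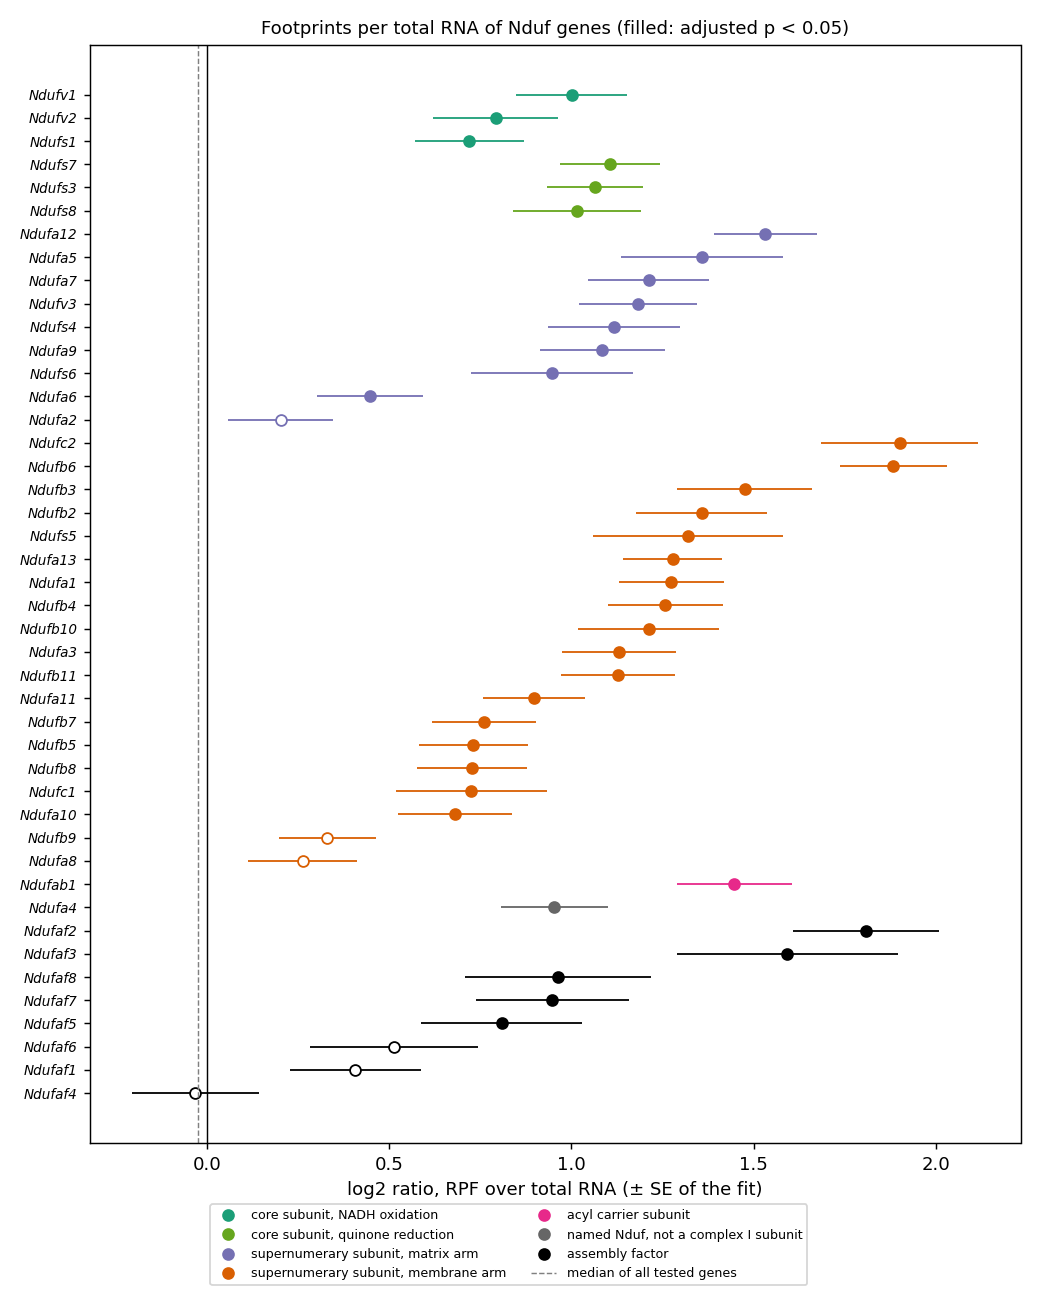
Log2 of RPF over total RNA (x axis, ± SE of the edgeR fit) for 44 of the 45 tested Nduf genes (y axis), grouped by role, with filled points for adjusted p under 0.05 and a dashed line at the median of all tested genes. The points to the right of 0 include every subunit shown, from Ndufa2 at 0.20 to Ndufc2 at 1.90, and Ndufaf4 at -0.03 is the one point to its left.

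The core subunits that oxidise NADH were all higher. Ndufv1, which binds flavin and NADH, had 233 and 213 CPM in RPF replicates 1 and 2, against 121 and 102 CPM in total RNA replicates 1 and 2. The groups did not overlap, and its ratio was 1.00 ± 0.15 (SE; adjusted p = 0.00293). Ndufv2, an iron-sulfur subunit beside it, had 101 and 81.5 CPM in RPF, against 57.9 and 47.5 CPM in total RNA (0.79 ± 0.17, adjusted p = 0.0101). Ndufs1, the large subunit that carries a chain of iron-sulfur clusters, had 173 and 145 CPM in RPF, against 98.8 and 94.0 CPM in total RNA (0.72 ± 0.15, adjusted p = 0.00866). In each of the 3 genes the lower RPF library exceeded the higher total RNA library. Ndufv2 and Ndufs1 did not pass without total RNA replicate 2.

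Of the core subunits that reduce quinone, Ndufs7, Ndufs3 and Ndufs8 were higher, with ratios close to one another. Ndufs7, which holds the cluster that passes electrons to quinone, had 76.6 and 84.1 CPM in RPF, against 38.0 and 36.7 CPM in total RNA (1.11 ± 0.14, adjusted p = 0.00154). Ndufs3, a structural part of the quinone module, had 105 and 100.5 CPM in RPF, against 51.0 and 47.3 CPM in total RNA (1.06 ± 0.13, adjusted p = 0.00155). Ndufs8, an iron-sulfur subunit, had 70.3 and 60.8 CPM in RPF, against 36.4 and 28.4 CPM in total RNA (1.02 ± 0.18, adjusted p = 0.00465). With a correction for coding share and exon length its ratio was 0.49 and did not pass (adjusted p = 0.0611). The 3 uncorrected ratios lie within one SE of each other.

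**Figure D2:**
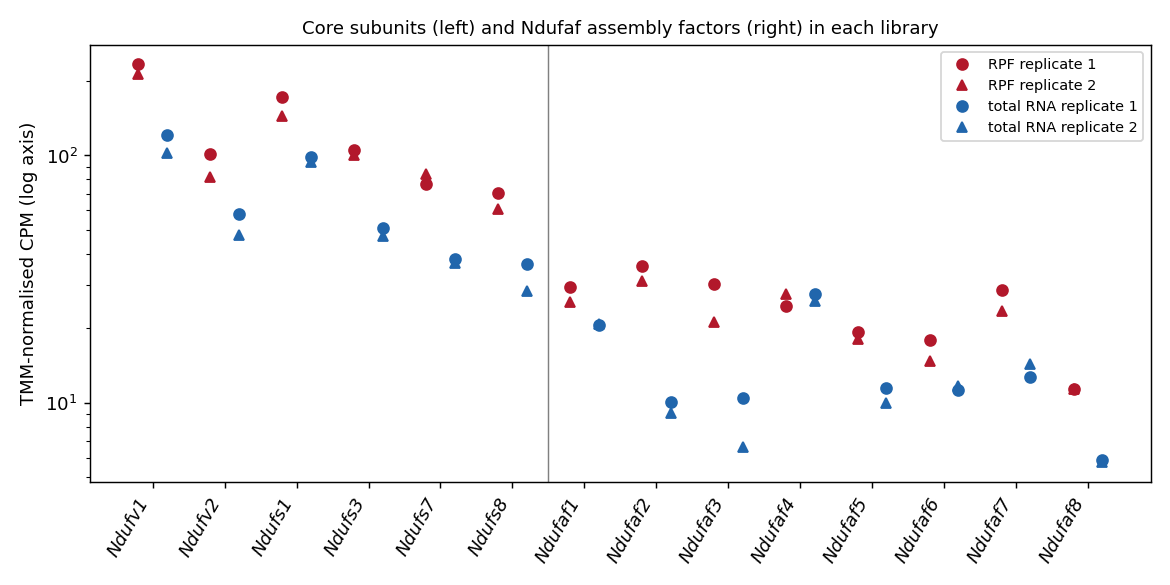
TMM-normalised CPM (log axis) of 6 core subunits and the 8 Ndufaf genes in each library, with RPF to the left of total RNA and replicates as circles and triangles. RPF lies above total RNA in every gene but Ndufaf4, where the 4 values run from 24.6 to 27.6 CPM.

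Supernumerary subunits held both the highest and the lowest ratio of the subunits, Ndufc2 and Ndufa2. Among those of the matrix arm 8 of 9 were higher, and among those of the membrane arm 17 of 19, with median ratios of 1.12 and 1.13. The highest was Ndufc2, a small membrane arm subunit, with 117 and 80.7 CPM in RPF, against 29.2 and 23.8 CPM in total RNA. Its ratio of 1.90 ± 0.22 is 3.73-fold (adjusted p = 0.00117). Ndufb6, also of the membrane arm, had 189 and 165 CPM in RPF, against 49.7 and 46.1 CPM in total RNA (1.88 ± 0.15, adjusted p = 0.000489). Neither gene overlapped between fractions. Their ratios exceed that of the next subunit by more than their SE, a difference between genes that was not tested. This order did not hold with the correction for coding share and exon length. There Ndufc2 was at 1.26 and Ndufb6 at 1.19, below Ndufa12 (1.28) and Ndufab1 (1.95).

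Ndufa12, a matrix arm subunit, had 127 and 145 CPM in RPF, against 46.5 and 47.5 CPM in total RNA (1.53 ± 0.14, adjusted p = 0.000742). Ndufb3, of the membrane arm, had 83.9 and 83.9 CPM in RPF, against 35.2 and 25.1 CPM in total RNA (1.48 ± 0.19, adjusted p = 0.00155), the spread lying in total RNA. Ndufab1, the mitochondrial acyl carrier protein, which also serves fatty acid synthesis, had 178 and 146 CPM in RPF, against 62.4 and 56.5 CPM in total RNA (1.45 ± 0.16, adjusted p = 0.00107). The ratios of these 3 differ by less than their SE. Their call held in all 13 alternative settings, as it did for Ndufc2 and Ndufb6.

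The low end of the subunits held genes of both arms. Ndufa10, a membrane arm subunit on the matrix side, had 171 and 137 CPM in RPF, against 97.4 and 94.4 CPM in total RNA (0.68 ± 0.16, adjusted p = 0.0126). Its call was lost under 4 of 13 alternatives, among them leaving out total RNA replicate 1 (adjusted p = 0.0569) or total RNA replicate 2 (adjusted p = 0.0739). Ndufa6, which binds the acyl carrier protein in the matrix arm, had 50.7 and 55.6 CPM in RPF, against 37.7 and 40.3 CPM in total RNA. It was just called (0.45 ± 0.15, adjusted p = 0.0446), and the call was lost under 10 of 13 alternatives, with adjusted p up to 0.942. Ndufb9, which binds the acyl carrier protein in the membrane arm, was not called, with 109 and 103 CPM in RPF, against 81.0 and 87.5 CPM in total RNA (0.33 ± 0.13, adjusted p = 0.0844, 95% interval of the ratio 0.02 to 0.64). Of the exon bases of Ndufb9, 19.5% overlap Gm49356 on the same strand, and the part of this in its ratio was not tested.

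Ndufa8, a cysteine-rich subunit on the intermembrane space side, had 55.5 and 48.7 CPM in RPF, against 41.5 and 45.4 CPM in total RNA (0.26 ± 0.15, adjusted p = 0.199, 95% interval -0.09 to 0.62). Ndufa2, a matrix arm subunit with a thioredoxin-like fold, had the lowest ratio of the 36, with 85.0 and 74.2 CPM in RPF, against 73.1 and 65.3 CPM in total RNA (0.20 ± 0.14, adjusted p = 0.294, 95% interval -0.14 to 0.54). For Ndufb9, Ndufa8 and Ndufa2 the interval of the ratio ends below the subunit median of 1.10. These genes were picked for their low ratios, and this does not set them apart. The interval also ended below that median in genes called higher, such as Ndufa6 (upper end 0.79) and Ndufa10 (1.05). Ndufa2 passed as lower once the ratios were corrected for coding share and for exon length (-0.50, adjusted p = 0.0308).

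The other 19 subunit genes all passed as higher, with adjusted p of 0.0283 or less. In the matrix arm they were Ndufa5 (1.36), Ndufa7 (1.21), Ndufv3 (1.18), Ndufs4 (1.12), Ndufa9 (1.08) and Ndufs6 (0.95). In the membrane arm the upper ones were Ndufb2 (1.36), Ndufs5 (1.32), Ndufa13 (1.28), Ndufa1 (1.27), Ndufb4 (1.26), Ndufb10 (1.21), Ndufa3 (1.13) and Ndufb11 (1.13). The lower ones were Ndufa11 (0.90), Ndufb7 (0.76), Ndufb5 (0.73), Ndufb8 (0.73) and Ndufc1 (0.73). Each value in brackets is the ratio. Their SE ran from 0.13 to 0.26, so genes that stand close in this order are not separated by these data.

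The Ndufaf genes split into 5 that were higher and 3 that did not pass. Ndufaf2, a relative of Ndufa12 that holds the matrix arm until that subunit replaces it, had 35.9 and 31.1 CPM in RPF, against 10.1 and 9.06 CPM in total RNA. Its ratio of 1.81 ± 0.20 (adjusted p = 0.0011) was the highest of the 8. Of its exon bases 65.7% overlap B230220B15Rik, a noncoding gene on the opposite strand. The sources used here do not give the strand setting of the counts, so reads of the 2 genes cannot be told apart there. Ndufaf3, which acts early in building the quinone module, had 30.2 and 21.2 CPM in RPF, against 10.5 and 6.59 CPM in total RNA (1.59 ± 0.30, adjusted p = 0.00639). Ndufaf4, its partner in that step, was level between fractions, with 24.6 and 27.6 CPM in RPF, against 27.5 and 25.8 CPM in total RNA. The fractions overlapped in Ndufaf4 alone (-0.03 ± 0.17, adjusted p = 0.899, 95% interval -0.44 to 0.38). The intervals of Ndufaf3 (0.88 to 2.31) and Ndufaf4 do not meet; the difference between the genes was not tested.

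Ndufaf8 and Ndufaf5 work as a pair, the second of which hydroxylates an arginine of Ndufs7. Ndufaf8 had 11.4 and 11.3 CPM in RPF, against 5.86 and 5.77 CPM in total RNA (0.96 ± 0.26, adjusted p = 0.022). Ndufaf5 had 19.4 and 18.2 CPM in RPF, against 11.4 and 9.99 CPM in total RNA (0.81 ± 0.22, adjusted p = 0.0241). Ndufaf7, a methyltransferase of the mitochondrial matrix, had 28.6 and 23.4 CPM in RPF, against 12.7 and 14.3 CPM in total RNA (0.95 ± 0.21, adjusted p = 0.0112). None of the 3 passed without total RNA replicate 1, and neither Ndufaf8 nor Ndufaf5 passed without total RNA replicate 2. Their counts ran from 56 to 222 per library.

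Ndufaf1, part of the complex that assembles the membrane arm, had 29.4 and 25.6 CPM in RPF, against 20.7 and 20.8 CPM in total RNA (0.41 ± 0.18, adjusted p = 0.109). Ndufaf6, which acts early in assembly, had 17.9 and 14.7 CPM in RPF, against 11.2 and 11.6 CPM in total RNA (0.51 ± 0.23, adjusted p = 0.113). In both genes RPF lay above total RNA in every library without passing the test, and the 95% intervals were -0.02 to 0.83 and -0.03 to 1.06.

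The 2 genes kept apart differed in level. Ndufa4, a subunit of cytochrome c oxidase, had 154 and 159 CPM in RPF, against 87.9 and 74.0 CPM in total RNA, and was higher (0.95 ± 0.15, adjusted p = 0.00305). Ndufa4l2, its paralogue known from hypoxia, had 6 and 6 counts in RPF and 1 and 4 counts in total RNA, too few for a test.

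Subunits and the assembly factors named Ndufaf differed far more in level than in ratio. This does not extend to the 10 tested assembly factors with other names, whose median ratio was -0.06. Summed over the 36 genes, subunits had 3993 and 3574 CPM in RPF (3784 ± 296, SD, n = 2), against 2024 and 1821 CPM in total RNA (1923 ± 143, SD, n = 2). The 8 Ndufaf genes summed to 197 and 173 CPM in RPF, against 110.0 and 104 CPM in total RNA. The sums did not overlap between fractions in either class, with RPF 1.97-fold and 1.73-fold above total RNA, but with 2 libraries against 2 the smallest p of an exact two-sided permutation test is 0.333, which both reached. The subunit sum was 20.2 and 20.6 times the Ndufaf sum in RPF, against 18.4 and 17.5 times in total RNA. These sums cover 36 and 8 genes, so they are not differences per gene. The median RPF levels per kilobase of coding sequence were 168 and 37.1 CPM. The subunit median ratio exceeded the Ndufaf median by 0.22, and by 0.16 to 0.30 when 1 library was left out. The replicate spreads of the 2 classes, combined as if independent, came to 0.28. Both classes come from the same libraries, so that value is not the replicate spread of the difference, which was not tested.

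Footprints per length spread less among the 7 core subunits (SD of log2 0.42) than among the 29 supernumerary ones (0.78), a difference that was not tested. Total RNA per kilobase of transcript had the same order (0.62 and 0.90), so it is not particular to footprints. Per kilobase of coding sequence the 36 subunits had a median RPF level of 168 CPM, from 56.1 in Ndufs5 to 493 in Ndufa7, and 27 of them lay within 2-fold of the median. Of the 28-base stretches of coding sequence, 82.1% in Ndufs5 and 22.1% in Ndufa7 occur in another gene, so both ends of the range are uncertain. Among core subunits the lowest was Ndufs1 at 72.8, and Ndufv1 stood at 160.4. For the 29 supernumerary subunits the RPF range was 8.78-fold. The 8 Ndufaf genes had a median of 37.1 CPM per kilobase of coding sequence, from 16.3 in Ndufaf6 to 66.5 in Ndufaf2. Ndufaf2 was thus above Ndufs5 (56.1) and Ndufv3 (59.9), and the other 34 subunits lay above every Ndufaf gene. Total RNA levels per length depend on which transcript is taken, and RPF levels on the coding form taken, which for Ndufv3 is the long one of 468 codons.

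**Figure D3:**
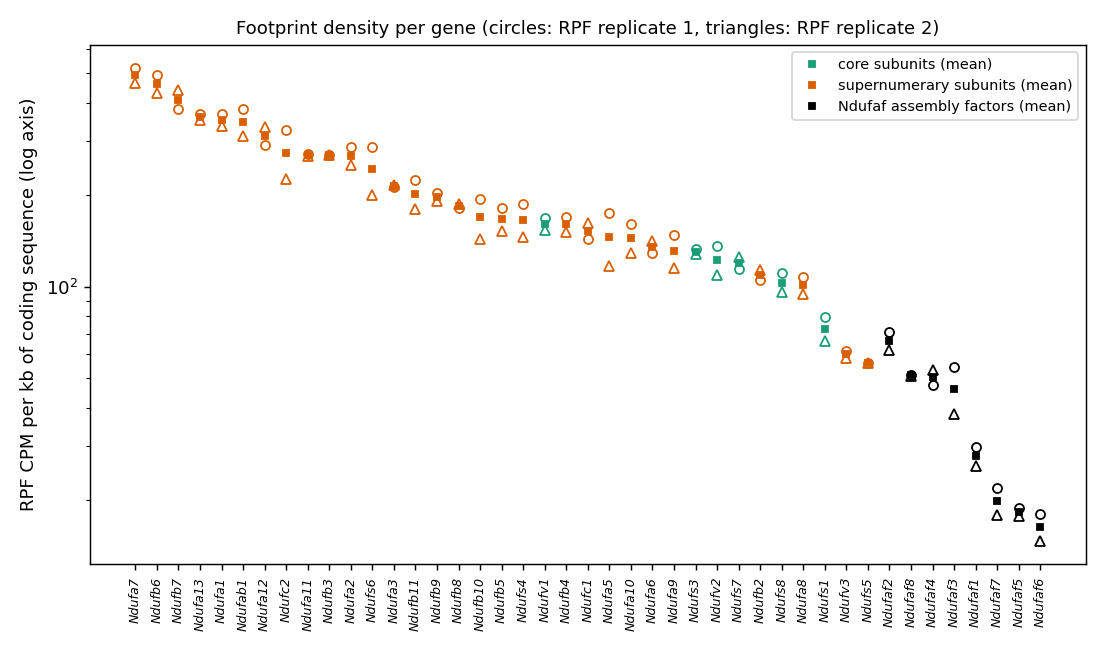
RPF CPM per kilobase of coding sequence (log axis) for 35 subunit genes and, to their right, the 8 Ndufaf genes, each in falling order of the mean (squares), with replicate 1 as circles and replicate 2 as triangles. Subunits lie between 56.1 and 493, with the core subunit Ndufs1 at 72.8 and Ndufv1 at 160.4, and Ndufaf genes lie between 16.3 and 66.5.

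The family shares short messages. The median coding sequence of the 45 tested members was 168 codons, from 70 in Ndufa1 to 727 in Ndufs1, against 474 codons in tested protein-coding genes outside it. The median 3′ untranslated part was 136 bases, against 913 bases outside, and the median 5′ leader 92 bases, against 160. Coding sequence made up a median of 60.6% of the chosen transcript, against 56.0% outside. Across genes outside the family, which share libraries and are not independent, Spearman's rho of the ratio was 0.25 with coding share and -0.36 with 3′ length (n = 12598). A correction for exon length and for the coding share of all exon bases was fitted on all protein-coding genes. With it the subunit median was 0.78 and the Ndufaf median 0.43, with 28 and 3 called higher. The coding share of all exon bases had a median of 36.2% in tested members, against 35.8% outside. Its rho with the ratio was 0.22 across genes outside.

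Many of these genes have near copies. Of the 46 members, 14 had over 20% of the 28-base stretches of their coding sequence in another annotated gene, all of them subunits, and in Ndufab1 and Ndufb4 it was 100%. Processed pseudogenes were among the partners, such as Gm15920 for Ndufa12 and BC002163 for Ndufs5. How reads that fit several places were handled is not given beyond a tally of non-unique alignments, so the counts of these 14 genes are uncertain. The 22 subunits below that share had 20 higher and a median ratio of 1.05, and the 14 above it had 13 higher and a median of 1.17. Exons of 19 members overlap another gene, by more than 10% in 7, among them Ndufb6 (39.0%, Smim27) and Ndufa13 (30.0%, Tssk6), both on the opposite strand. Without these 7, 29 of 30 subunits were higher.

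Of 10 tested assembly factors with other names, 3 were higher, 1 lower and 6 did not pass, with a median ratio of -0.06. With 20.5% of all tested genes higher and 21.2% lower, so small a list is not set apart from the background by these counts. Dmac1, of the distal membrane arm, had 40.9 and 29.4 CPM in RPF, against 18.2 and 15.3 CPM in total RNA (1.07 ± 0.22, adjusted p = 0.00886). Ecsit, a partner of Ndufaf1, had 39.2 and 32.4 CPM in RPF, against 24.4 and 22.3 CPM in total RNA (0.62 ± 0.18, adjusted p = 0.0301), and Acad9, another partner, was the third higher gene (0.49 ± 0.14, adjusted p = 0.0295). Tmem186, which joins the same complex, was lower, with 13.4 and 15.7 CPM in RPF, against 32.1 and 35.4 CPM in total RNA (-1.21 ± 0.19, adjusted p = 0.00315), and held that call in all 13 alternatives. Lyrm2 was next lowest (-0.16 ± 0.33, adjusted p = 0.73). The calls of Ecsit and of Dmac1 did not hold with that correction (adjusted p = 0.198 and 0.149), and Ecsit lost its call under 8 of 13 alternatives.

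The membrane arm core is encoded in mitochondrial DNA and made by mitochondrial ribosomes. Of its 7 genes 5 were tested, with 1 higher and 1 lower, close to the share over all tested genes (20.5% higher and 21.2% lower). mt-Nd4l had no count and mt-Nd3 had 1. mt-Nd1 had 51.7 and 17.2 CPM in RPF, against 228 and 111 CPM in total RNA (-2.29 ± 0.52, adjusted p = 0.0122). It stayed called with any 1 library left out, at -3.29 without RPF replicate 1 and -1.70 without RPF replicate 2. mt-Nd6 had 75.0 and 23.6 CPM in RPF, against 15.1 and 12.7 CPM in total RNA (1.83 ± 0.48, adjusted p = 0.0219). Its ratio was 0.77 without RPF replicate 1 and 2.44 without RPF replicate 2, and it did not pass with the joint correction for exon length and coding share (adjusted p = 0.0963) or with glmTreat against a fold of 1.5 (adjusted p = 0.0576). mt-Nd5 had 143 and 42.2 CPM in RPF, against 82.4 and 43.0 CPM in total RNA (0.56 ± 0.53, adjusted p = 0.425). It passed as lower without RPF replicate 1 (-0.56, adjusted p = 0.0415) and as higher without RPF replicate 2 (1.2, adjusted p = 1.2e-07). mt-Nd4 had 31.1 and 7.86 CPM in RPF, against 60.1 and 31.6 CPM in total RNA (-1.22 ± 0.56, adjusted p = 0.122). It passed as lower without RPF replicate 1 (-2.53, adjusted p = 4.02e-11), RPF replicate 2 (-0.55, adjusted p = 0.039) or total RNA replicate 2 (-1.62, adjusted p = 0.00191), and with library size only (-1.68, adjusted p = 0.0387). These values move with the library left out. In each of the 5 tested genes replicate 1 was above replicate 2, in RPF as in total RNA. mt-Nd6 is the one of the 7 encoded on the other strand, and without the strand setting its reads cannot be told apart from transcripts that run across it. The summed level of the 7 genes was 323 and 93.7 CPM in RPF, against 402 and 209.6 CPM in total RNA.

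The nuclear subunits of complexes II to V, set beside complex I as the genes most like it, had 35 of 38 higher, none lower and a median ratio of 1.08. Complex I subunits had 33 of 36 and 1.10. No test of a difference between the 2 groups was made, and the counts and medians do not set complex I apart from the other respiratory complexes.

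**Figure D4:**
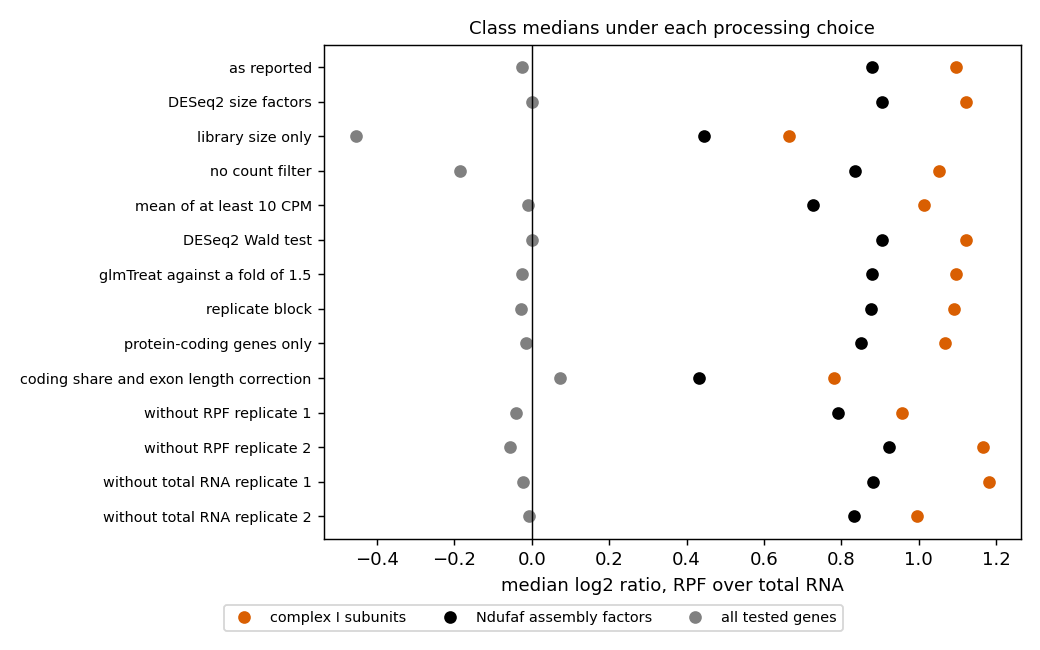
Median log2 of RPF over total RNA (x axis) of complex I subunits, Ndufaf assembly factors and all tested genes under each processing choice (y axis). Subunits run from 0.66 to 1.18, Ndufaf genes from 0.43 to 0.92 and all genes from -0.45 to 0.07, and subunits lie right of Ndufaf genes under each choice.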

How the data were processed

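Per the labels, Total RNA and RPF libraries were made with the TruSeq Ribo Profile kit after Ribo-Zero depletion and read as single ends of 50 bp; RPF libraries were run 4 times. The authors deposited 1 file of raw counts per library. Per the submitters' processing notes, the build was mm9 and the tools HTSeq 0.11.2, edgeR 3.26.8, TopHat2 2.1.1 and Bowtie 1.2.3. The annotation release and strand setting were not given. Closing tallies were left out: no feature was 5.95% and 6.66% of alignments in RPF and 23.4% and 26.2% in total RNA, ambiguous 4.96% and 8.58% in RPF and 0.755% and 0.719% in total RNA, and non-unique 21.0% and 20.6% in RPF and 16.6% and 16.5% in total RNA.

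Under R 4.3.3, edgeR 4.0.16 fitted the counts with TMM factors, filterByExpr (minimum count 10, total 15; 13809 genes kept) and a quasi-likelihood test of fraction. SE is the size of the ratio over the square root of F; CPM are TMM-normalised. Symbols, lengths and sequences come from GENCODE M21 by identifier without version (87.4% matched). The chosen transcript is the APPRIS principal one with the longest coding sequence, best support and shortest length. Simulated on 13809 genes, the test recovered 53 of 100 genes changed 2-fold and 92 of 100 changed 4-fold, with 7 false calls. Every simulated gene had the same fixed dispersion, and far fewer genes were changed than were called in the data. These figures may therefore not carry over to the data. Named members are the core subunits, the 5 highest and 5 lowest other subunits, all Ndufaf genes, Ndufab1, Ndufa4 and Ndufa4l2, and the extremes of each list beside them. The values of 1 core subunit gene, which is in all class counts, medians and sums, are not reported here. Members and lists were chosen with earlier results of these data known. P-values rest on the spread between the 2 replicates of each fraction, with the variance of each gene drawn towards a trend over all tested genes.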

Additional observations from a re-analysis of the deposited data

How the results depend on the processing

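The 13 alternatives were scaling by library size only or by DESeq2 size factors, dropping the count filter or asking for 10 CPM on average, DESeq2 1.42.0, glmTreat (fold 1.5), a replicate block, protein-coding genes alone, a correction for coding share with exon length, and each library left out. The coding share in the correction was that of all exon bases. Leaving out genes with shared stretches or overlapping exons was chosen after seeing the data. Of the higher calls, 21 of 33 in subunits and 2 of 5 in Ndufaf genes held in all 13. Medians moved to 0.66 (subunits) and 0.44 (Ndufaf) with library size only and to 0.78 and 0.43 with the correction, which also made 1 Nduf gene, the subunit Ndufa2, lower. Ndufaf genes called higher were 2 with library size only, 2 with glmTreat and 3 with the correction, and 2 to 5 with 1 library left out. Without genes of over 20% shared coding stretches 20 subunits were higher, of 22 tested. Over all genes, 1226 were higher and 4957 lower with library size only, and 1155 and 1549 with glmTreat; with 1 library left out they were 1721 to 3341 and 1857 to 3440, the lowest without total RNA replicate 2.

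Ratios changed sign with library size only in Ndufb9 (-0.10), Ndufa8 (-0.17), Ndufa2 (-0.23) and Ndufaf1 (-0.028), and with the correction in Ndufb9 (-0.26), Ndufa8 (-0.39), Ndufa2 (-0.50), Ndufaf1 (-0.10), Ndufaf6 (-0.010) and Ndufaf4 (0.27). With 1 library left out, Ndufaf4 ran from -0.10 to 0.062, Lyrm2 from -0.50 to 0.13 and mt-Nd5 from -0.56 to 1.2. The causes were not tested.

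With the replicate number as a block, 4257 genes were higher and 4365 lower, with 35 subunits and 7 Ndufaf genes higher, Ndufa8, Ndufb9, Ndufaf1 and Ndufaf6 being added (adjusted p = 0.0399, 0.00119, 0.0148 and 0.0166). mt-Nd4 passed as lower and mt-Nd5 as higher (adjusted p = 1.28e-18 and 4.75e-05). The labels do not say that a number marks a shared lysate; deviations of same-numbered libraries correlated across genes (Pearson's r 0.41, 13809 genes), with only 2 pairs. The Ndufaf genes had 56 to 282 counts per library. With 1 library left in a fraction, it is assumed to vary like the others.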

Other observations

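Across the 36 subunits Spearman's rho of the ratio with the coding share of the transcript was -0.37, against 0.25 across 12598 protein-coding genes outside the family. The sign also differed for 5′ leader length (rho 0.10 across subunits and -0.17 across genes outside). It differed too for the coding share of all exon bases (-0.11 and 0.22). Other lengths had the same sign in both. Across subunits and across genes outside, rho was -0.36 and -0.10 with coding length and -0.22 and -0.30 with exon length. With 3′ length it was -0.02 and -0.36. With the level in total RNA, which also enters the ratio, rho was -0.51 across the 36 subunits, against 0.03 across 12610 genes outside. The points share libraries, and these values are a description of the genes, with no test.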
